A study of Mus musculus with 12 samples.

Results

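Calb2, Tbx15, Actn3, Nphs1, Gprc5c and Adgrg1 are 6 genes whose messenger RNA was far lower in Pcbp1 knockout (KO) than in control (WT) mouse embryonic stem cells kept in the naive state. They were chosen by that difference in counts between naive KO and naive WT libraries, out of 55487 genes counted and 18134 with enough reads to test, and all 6 passed the filter on low counts. No fold or p threshold came with the choice. Their values in naive cells are therefore a description, and the measurement that the choice did not use is their level after the same kinds of clone had become epiblast-like cells (EpiLCs).

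Polyadenylated RNA was sequenced from 12 cultures of the embryonic stem cell line E14 Tg2a, in 4 groups of 3 libraries. Naive KO and naive WT cells had been adapted for 3 passages to serum-free N2B27 medium with LIF, 1 uM PD0325901 (a MEK inhibitor) and 3 uM CHIR99021 (a GSK3 inhibitor) on poly-L-ornithine. EpiLC KO and EpiLC WT cells were grown for 48 h on fibronectin at 15 ug/ml in N2B27 with 12 ng/ml bFGF, 20 ng/ml activin A and 1% KOSR. Each KO library came from 1 of 3 independent Pcbp1-ko clones and each WT library from 1 of 3 independent control clones, named Scr in the series text and WT in the sample labels. A library thus stands for a single clone, and the position of the edit in Pcbp1 is not given in the labels. Libraries held 27146744 to 42204511 counted reads.

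Pcbp1 encodes poly(C)-binding protein 1, a KH-domain protein that binds cytosine-rich stretches of RNA and DNA and acts in splicing, mRNA stability and translation. Naive cells in this medium resemble the preimplantation epiblast, and culture with bFGF and activin A moves them towards the early postimplantation epiblast. The 6 genes belong to unrelated families and are best known outside the embryo, in neurons, skeleton, fast muscle, kidney podocytes and cell-surface signalling.

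Pcbp1 itself separated the genotypes in both media. Its mRNA measured 295, 302 and 303 CPM in naive KO, against 475, 418 and 474 CPM in naive WT, and 250, 302 and 265 CPM in EpiLC KO, against 692, 512 and 591 CPM in EpiLC WT. Here CPM is counts-per-million after TMM scaling, and values are listed in the order of replicates 1, 2 and 3. The log2 fold change of KO over WT was -0.60 ± 0.111 (standard error) in naive cells and -1.14 ± 0.112 in EpiLCs, with adjusted p = 0.00599 and 0.000137 (edgeR quasi-likelihood test, Benjamini-Hochberg over all genes tested). Reads from Pcbp1 thus remained in every KO library, and the counts say nothing of the protein.

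The 6 genes split after the change of medium. Actn3 and Adgrg1 were also called lower by edgeR once KO and WT cells were EpiLCs, 2 of 6 genes where 7.86% of all tested genes were called lower. For Nphs1 and Gprc5c every EpiLC KO library lay below every EpiLC WT library, as for 17.2% of all tested genes. Neither passed the test. Calb2, which had the lowest log2 fold change of the 6 in naive KO, was low in both genotypes of EpiLC. Tbx15 measured higher in all 3 EpiLC KO libraries than in all 3 EpiLC WT libraries, as did 16.1% of tested genes. Tbx15 did not pass the test either. In RNA from whole cultures, fewer cells that use a gene and less RNA per cell cannot be told apart.

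**Figure D1:**
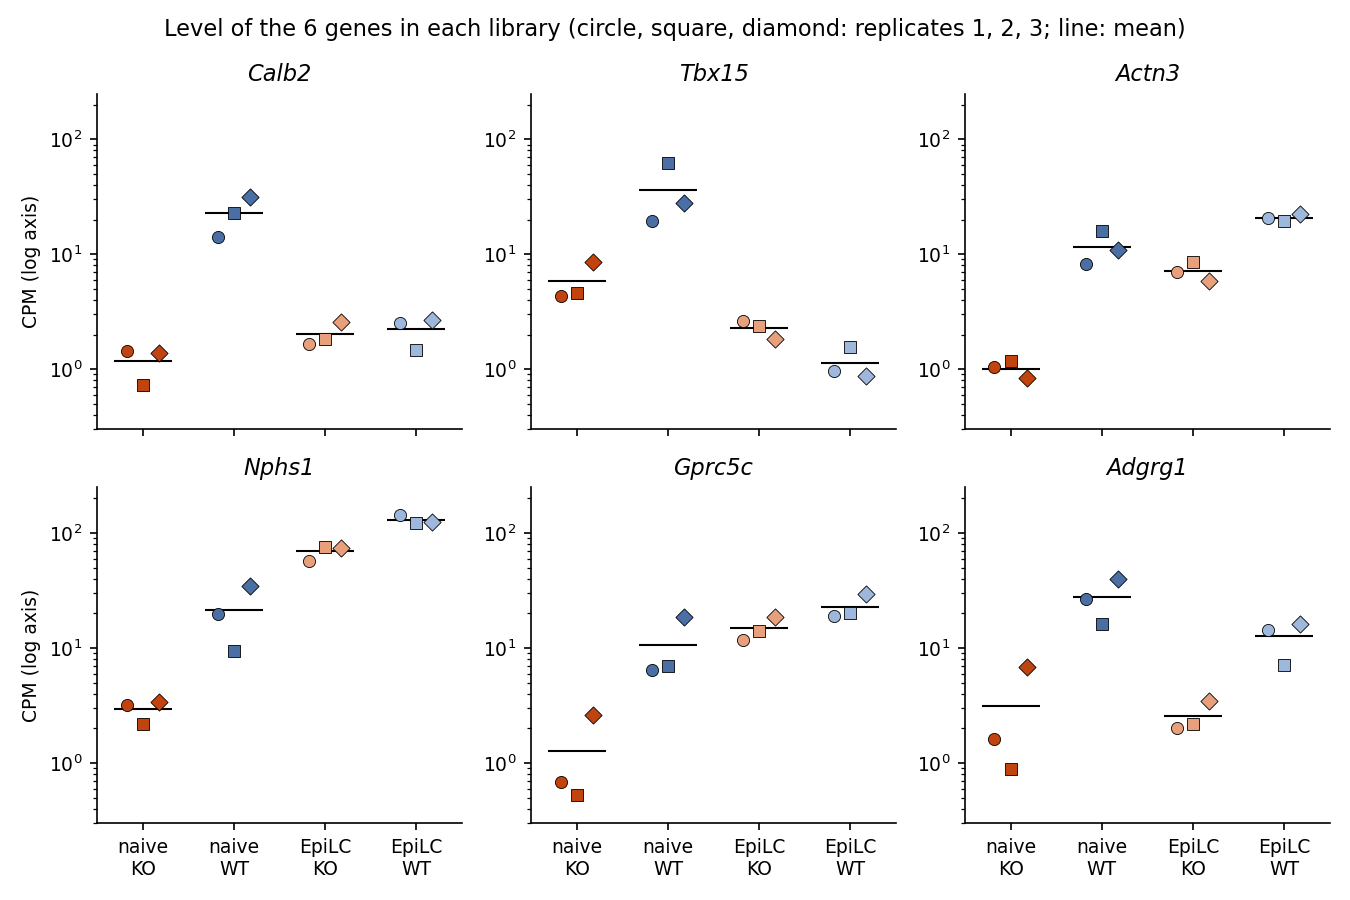
Level of each of the 6 genes in every library, in CPM on a log axis, with the line at the group mean and circle, square and diamond for replicates 1, 2 and 3. Every naive KO point lies below every naive WT point for all 6 genes, the EpiLC points of Calb2 overlap between genotypes, and those of Tbx15 stand higher in KO.

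Tbx15 is the only transcription factor among them, a T-box protein that acts in the limb and craniofacial skeleton, adipocytes and muscle fibres. The gene (ENSMUSG00000027868.11) lies on the plus strand of chromosome 3, at chr3:99240381-99354259 of GRCm38, and its annotated exons sum to 3747 bp. It measured 4.31, 4.62 and 8.55 CPM in naive KO, against 19.3, 61.7 and 28.1 CPM in naive WT. The naive WT clones thus differed among themselves more than 3-fold, with replicate 2 the highest, and even the lowest of them was above the highest KO clone. The group means were 5.83 ± 2.36 CPM in naive KO and 36.4 ± 22.3 CPM in naive WT (SD, n = 3 each), which is 6.24 times as much in WT. In EpiLCs the order of the genotypes was the other way round, at low levels. Tbx15 had 2.62, 2.38 and 1.83 CPM in EpiLC KO, against 0.97, 1.57 and 0.865 CPM in EpiLC WT. The reads behind these EpiLC values numbered 65 to 114 in KO and 26 to 42 in WT. For EpiLC KO over WT the log2 fold change was 1.02 ± 0.447, with a 95% confidence interval of 0.05 to 1.99 and adjusted p = 0.146 by edgeR. Without the filter on low counts the same difference passed, at 1.00 with adjusted p = 0.0248. In WT cells Tbx15 averaged 1.13 CPM in EpiLCs, against 36.4 CPM in naive cells, a log2 difference of -5.01, the steepest of the 6. In KO cells the EpiLC mean was 2.28 CPM and the naive mean 5.83 CPM, a log2 difference of -1.35.

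Calb2 encodes calretinin, a cytosolic EF-hand protein that buffers calcium in neurons. It lies on the minus strand at chr8:110137502-110168210 (ENSMUSG00000003657.9, 1743 bp of exons). The 3 naive KO libraries had 1.43, 0.724 and 1.38 CPM, from 26 to 48 reads each, against 14.2, 22.8 and 31.4 CPM in naive WT. No other member differed as much: the WT mean of 22.8 ± 8.6 CPM was 19.3 times the KO mean of 1.18 ± 0.394 CPM (SD, n = 3 each), and the fitted log2 fold change of -4.27 ± 0.384 was the thirteenth lowest of all tested genes. In EpiLCs Calb2 measured 1.65, 1.82 and 2.59 CPM in KO, against 2.50, 1.46 and 2.69 CPM in WT. These ranges overlap. Between genotypes the log2 fold change was -0.14 ± 0.352, with an interval of -0.90 to 0.62 and adjusted p = 0.83, so that a difference of the naive size lies outside the interval while a smaller one in either direction does not. The larger difference between media was in WT cells, whose EpiLC mean of 2.22 ± 0.665 CPM was 9.73% of their naive mean. The KO cells had slightly more Calb2 mRNA as EpiLCs, 2.02 ± 0.5 CPM against 1.18 ± 0.394 CPM as naive cells, and those ranges did not overlap.

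Actn3 encodes the alpha-actinin that crosslinks actin filaments at the Z-disc of fast muscle fibres. It lies on the minus strand at chr19:4861216-4877909 (ENSMUSG00000006457.4, 2901 bp of exons). Its replicates were the closest of the 6 genes in naive KO, at 1.04, 1.17 and 0.83 CPM, against 8.23, 15.8 and 10.9 CPM in naive WT. The log2 fold change in naive cells was -3.52 ± 0.27. In EpiLCs it measured 7.00, 8.62 and 5.89 CPM in KO, against 20.5, 19.4 and 22.3 CPM in WT. Both genotypes thus had more Actn3 mRNA as EpiLCs than as naive cells, and EpiLC KO held 34.6% of the EpiLC WT level, with means of 7.17 ± 1.37 and 20.7 ± 1.48 CPM (SD, n = 3 each). This log2 fold change of -1.53 ± 0.237 passed the edgeR test with adjusted p = 0.00164 and an interval of -2.05 to -1.02. It was the only EpiLC call among the 6 that held with each of the 12 libraries left out in turn, at log2 fold changes of -1.69 to -1.41 and adjusted p of 0.000807 to 0.0111. Skeletal muscle markers were near the floor in the same libraries: the sum over Myod1, Myog, Acta1, Myh1, Myh2, Myh4, Ckm and Tnnt3 was 1.74 to 2.25 CPM in EpiLC KO, against 0.784 to 2.43 CPM in EpiLC WT, and Myod1 reached at most 0.185 CPM in any library.

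Nphs1 encodes nephrin, the immunoglobulin-family adhesion protein that spans the slit diaphragm between kidney podocytes. It lies on the plus strand at chr7:30458315-30487223 (ENSMUSG00000006649.17, 6620 bp of exons). Its neighbour Kirrel2, which encodes another adhesion protein of the same complex, lies on the minus strand with 625 bp between the annotated gene spans. Kirrel2 also had the most similar profile to Nphs1 over the 12 libraries, so the RefSeq promoter windows of the pair are given here, at chr7:30459808-30460107 on the plus strand for Nphs1 and chr7:30457466-30457765 on the minus strand for Kirrel2 (GRCm38.p6). Each window runs 5′ to 3′ on the gene's own strand from 250 bases before to 50 bases after the RefSeq start. The Nphs1 window lies inside the longer GENCODE span of the gene, and 2042 bases separate the 2 windows.
Nphs1: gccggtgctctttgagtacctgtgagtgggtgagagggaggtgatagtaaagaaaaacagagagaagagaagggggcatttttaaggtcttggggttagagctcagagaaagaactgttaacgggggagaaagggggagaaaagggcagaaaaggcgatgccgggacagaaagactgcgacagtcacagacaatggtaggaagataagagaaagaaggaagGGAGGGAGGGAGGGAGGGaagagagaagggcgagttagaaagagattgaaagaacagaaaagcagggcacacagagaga
Kirrel2: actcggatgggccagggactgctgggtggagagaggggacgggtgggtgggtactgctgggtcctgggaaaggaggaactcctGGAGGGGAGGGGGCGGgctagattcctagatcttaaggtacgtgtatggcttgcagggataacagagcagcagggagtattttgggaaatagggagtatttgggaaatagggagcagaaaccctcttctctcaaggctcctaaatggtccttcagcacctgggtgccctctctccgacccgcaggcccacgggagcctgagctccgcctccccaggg
The capitals mark matches to 4 short motifs searched on both strands, the TATA box TATAAA, the CCAAT box CCAAT, the GC box GGGCGG and the cytosine-rich hexamer CCCTCC. In the Nphs1 window the capitals are 4 overlapping copies of CCCTCC on the opposite strand, read as GGAGGG. In the Kirrel2 window they are 2 copies of CCCTCC, also read as GGAGGG, and 1 copy of GGGCGG that follows them. Of all 32851 RefSeq mouse windows of this length, 39.2% hold CCCTCC, 35.7% GGGCGG, 37.4% CCAAT and 13.6% TATAAA. GC content was 49.7% for the Nphs1 window and 59.7% for the Kirrel2 window, with a median of 52.7% over all windows. A match describes the letters and says nothing of a bound factor.

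Nphs1 measured 3.21, 2.17 and 3.41 CPM in naive KO, against 19.9, 9.45 and 34.4 CPM in naive WT. The WT clones spread more than 3-fold, with replicate 2 the lowest, and none overlapped the KO clones. In EpiLCs Nphs1 had the highest level of the 6 genes, 57.7, 75.5 and 74.8 CPM in KO, against 143, 122 and 126 CPM in WT. Every KO library was below every WT library, and the KO mean of 69.3 ± 10.1 CPM was 53.1% of the WT mean of 130 ± 11.4 CPM (SD, n = 3 each). The log2 fold change of -0.91 ± 0.324 did not pass by edgeR, with adjusted p = 0.0774 and an unadjusted interval of -1.62 to -0.21. Its side of the threshold depended on the model. The difference passed in a fit of the 6 EpiLC libraries alone (adjusted p = 0.00719), by DESeq2 (0.0463), without the filter on low counts (0.000354), and when naive WT replicate 2 (0.0129) or naive WT replicate 3 (0.0289) was left out. Those 2 libraries are the lowest and the highest of naive WT. A pair of features share exon bases with Nphs1 on the other strand, Nphs1os with 597 of its 6620 bp and the pseudogene Rps12-ps4 with 183 bp. The header records no strand option, and under the tool's defaults reads that touch the shared bases are counted for neither gene. In the other exon bases of each feature, reads from either strand are counted alike.

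Kirrel2 followed Nphs1 closely at lower levels. It averaged 1.61 ± 0.158 CPM in naive KO and 9.75 ± 4.44 CPM in naive WT, and 26.6 ± 4.62 CPM in EpiLC KO and 53.5 ± 14.0 CPM in EpiLC WT (SD, n = 3 each). It was called lower in naive KO, with a log2 fold change of -2.60 ± 0.337 and adjusted p = 0.000722, and that call held with each library left out. In EpiLCs the log2 fold change was -1.01 ± 0.295 with adjusted p = 0.0383. The EpiLC call ended when any EpiLC library other than WT replicate 2 was left out (adjusted p 0.0675 to 0.143), and without naive KO replicate 1 (0.0559) or naive WT replicate 1 (0.0518). Nphs1os, the antisense transcript inside Nphs1, averaged 0.0982 CPM in naive KO and 0.92 CPM in naive WT, and 2.90 CPM in EpiLC KO and 4.15 CPM in EpiLC WT, with the same limit on strand. Aplp1, the next gene beyond Kirrel2, which encodes an amyloid precursor-like protein, averaged 12.6 ± 0.847 CPM in naive KO and 28.5 ± 8.29 CPM in naive WT, a log2 fold change of -1.18 (adjusted p = 0.00363). Of the other podocyte markers, Synpo, an actin-associated protein gene, reached at most 0.362 CPM in any library, while Wt1 averaged 84.8 CPM in EpiLC KO and 81.9 CPM in EpiLC WT, and Podxl 138 CPM in EpiLC KO and 143 CPM in EpiLC WT.

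Gprc5c and Adgrg1 are the G protein-coupled receptors of the set. Gprc5c encodes an orphan G protein-coupled receptor of the retinoic acid-inducible GPRC5 family. It lies on the plus strand at chr11:114851152-114872617 (ENSMUSG00000051043.16, 5245 bp of exons). It had 0.68, 0.529 and 2.61 CPM in naive KO, from 19, 23 and 85 reads in rising order, against 6.44, 6.92 and 18.6 CPM in naive WT. Replicate 3 was the highest in both genotypes. The fitted log2 fold change in naive cells, -3.07 ± 0.563, stood at -4.17 without naive KO replicate 3 and at -2.42 without naive WT replicate 3. In EpiLCs Gprc5c measured 11.8, 14.2 and 18.6 CPM in KO, against 19.1, 20.1 and 29.5 CPM in WT, and replicate 3 was again the highest in both. The highest KO library lay just under the lowest WT library. The log2 fold change of -0.62 ± 0.492 did not pass by edgeR, with adjusted p = 0.433 and an interval of -1.69 to 0.45. Gprc5c had more mRNA in EpiLCs of both genotypes, with a mean of 14.9 ± 3.44 CPM in EpiLC KO against 1.28 ± 1.16 CPM in naive KO, and 22.9 ± 5.72 CPM in EpiLC WT against 10.7 ± 6.89 CPM in naive WT (SD, n = 3 each).

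Adgrg1 encodes the adhesion G protein-coupled receptor GPR56, a collagen-binding receptor known from cortical development and blood cells. It lies on the plus strand at chr8:94974751-95014217 (ENSMUSG00000031785.16, 5421 bp of exons). The RefSeq table holds 2 of the 6 members, Nphs1 and Adgrg1, and gives Adgrg1 a pair of start sites inside this span. Their windows, chr8:94976859-94977158 and chr8:94984149-94984448 of GRCm38.p6, are shown because Adgrg1 had the larger of the 2 EpiLC differences that passed the test.
Adgrg1 start 1: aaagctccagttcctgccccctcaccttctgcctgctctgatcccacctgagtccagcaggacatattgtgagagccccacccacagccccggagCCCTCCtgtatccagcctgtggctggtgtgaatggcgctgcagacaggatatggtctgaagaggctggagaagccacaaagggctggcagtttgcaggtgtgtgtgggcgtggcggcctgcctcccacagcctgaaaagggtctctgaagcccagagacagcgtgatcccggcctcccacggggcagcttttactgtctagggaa
Adgrg1 start 2: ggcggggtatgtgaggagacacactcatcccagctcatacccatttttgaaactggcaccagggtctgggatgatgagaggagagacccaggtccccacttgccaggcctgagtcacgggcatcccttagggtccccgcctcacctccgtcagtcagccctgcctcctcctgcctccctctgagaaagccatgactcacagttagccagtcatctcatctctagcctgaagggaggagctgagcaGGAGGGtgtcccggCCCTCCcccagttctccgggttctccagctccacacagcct
Capitals mark the same 4 motifs, and the matches here are all to CCCTCC, 1 in the upstream window and 2 in the downstream window, where 1 is read as GGAGGG. Both windows have a GC content of 60.7%. The gene counts do not tell which start a read came from.

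Adgrg1 measured 1.63, 0.891 and 6.89 CPM in naive KO, against 26.8, 16.2 and 39.9 CPM in naive WT. As with Gprc5c, replicate 3 was the highest in both genotypes. The fitted log2 fold change was -3.14 ± 0.629 with all libraries. With 1 library left out it ran from -4.49, without naive KO replicate 3, to -2.72. In EpiLCs Adgrg1 had 2.00, 2.19 and 3.46 CPM in KO, against 14.5, 7.10 and 16.3 CPM in WT. Again replicate 3 was the highest of each genotype, and the genotypes did not overlap. EpiLC KO held 20.2% of the EpiLC WT level, with means of 2.55 ± 0.796 and 12.6 ± 4.86 CPM (SD, n = 3 each). A log2 fold change of -2.31 ± 0.616, with an interval of -3.64 to -0.98, passed the edgeR test with adjusted p = 0.0257. The call ended when EpiLC KO replicate 1 (-2.16, adjusted p = 0.0987), EpiLC KO replicate 2 (-2.21, 0.0805), EpiLC WT replicate 1 (-2.20, 0.0643) or EpiLC WT replicate 3 (-2.09, 0.071) was left out, with the size of the difference nearly as before. Between media Adgrg1 moved least in KO cells, with 2.55 CPM in EpiLC KO against 3.14 CPM in naive KO. In WT cells it averaged 12.6 CPM as EpiLCs against 27.6 CPM as naive cells, and the ranges overlapped.

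In the EpiLC comparison as a whole, 15.1% of the 18134 tested genes were called, 7.86% lower and 7.22% higher in KO. Of the 6 genes, 2 were called lower by edgeR and 3 by DESeq2. Among all genes edgeR called 1425 lower and DESeq2 1849. By edgeR, 3 of the 6 had an unadjusted p under 0.05 with a lower value in KO, and the matching share of all genes is not given here. Leaving out 1 library gave 1 to 3 called members, 1 where Adgrg1 was lost and 3 where Nphs1 was gained as given above. Every KO library lay below every WT library for 4 of the 6, where 17.2% of all genes did so, and above for Tbx15, where 16.1% did so. The median log2 fold change of the 6 was -0.77 in EpiLCs, with a median of 0 over all genes. In naive cells the median was -3.11, again with 0 over all genes, and the ranks among all genes from the lowest up were 13 for Calb2, 28 for Actn3, 46 for Adgrg1, 50 for Gprc5c, 65 for Nphs1 and 110 for Tbx15. All 6 were lower in every naive KO library, where 15.3% of all genes were, and 9.23% of all genes were called in naive cells in either direction and 4.95% as lower. The naive figures restate how the genes were picked.

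**Figure D2:**
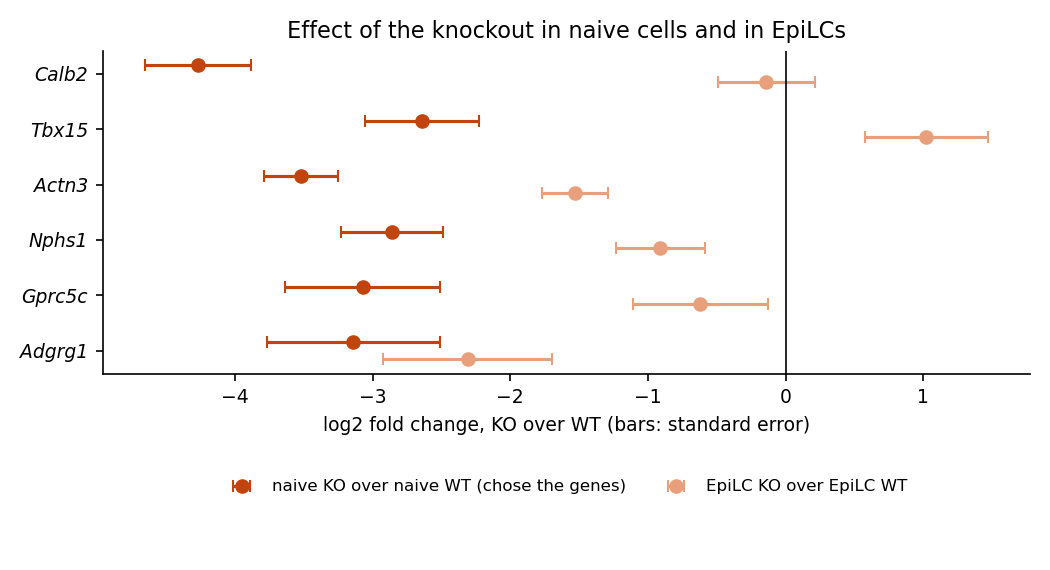
Log2 fold change of KO over WT for the 6 genes in naive cells (dark) and EpiLCs (light), with bars of 1 standard error from the edgeR fit. The naive values run from -4.27 to -2.64, and the EpiLC values run from -2.31 for Adgrg1 to 1.02 for Tbx15.

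The EpiLC libraries were not used in picking the genes. With 3 clones per genotype, as described above, they are not cultures of new clones. The labels do not say which naive and EpiLC libraries share a clone. Within a genotype, naive and EpiLC libraries with the same replicate number deviated together across genes from their group means, with correlations of 0.145 to 0.264 in KO and 0.218 to 0.236 in WT, and each library correlated best with its own number. This is a hint from the data that a number marks the same clone in both media. For the 6 genes the ranks of the replicates repeated in some cases and not in others. Gprc5c and Adgrg1 were highest in replicate 3 of all 4 groups, Tbx15 was highest in WT replicate 2 in both media, and Nphs1 and Adgrg1 were lowest in WT replicate 2 in both media. Other ranks turned round: KO replicate 3 was the lowest of EpiLC KO and the highest of naive KO for Tbx15, KO replicate 1 the lowest of EpiLC KO and the highest of naive KO for Calb2, and WT replicate 2 the lowest of EpiLC WT and the highest of naive WT for Actn3.

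The change of medium separated the 6 genes in WT cells, where KO plays no part. Actn3, Nphs1 and Gprc5c had more mRNA in EpiLC WT than in naive WT, with log2 differences of 0.83, 2.62 and 1.10. Calb2, Tbx15 and Adgrg1 had less, with -3.35, -5.01 and -1.13. These contrasts share libraries with the choice of the genes and are given without a test. The order of levels per exon length changed with it. In naive WT the order in CPM per kb was Calb2 at 13.1, Tbx15 at 9.70, Adgrg1 at 5.10, Actn3 at 4.02, Nphs1 at 3.21 and Gprc5c at 2.03, and each gene's replicates overlapped those of the next in that order. In EpiLC WT the order in CPM per kb was Nphs1 at 19.7, Actn3 at 7.15, Gprc5c at 4.36, Adgrg1 at 2.33, Calb2 at 1.27 and Tbx15 at 0.303, and the replicates overlapped between Adgrg1 and Calb2 alone. In naive KO all 6 were low, from 0.243 CPM per kb for Gprc5c to 1.56 CPM per kb for Tbx15. In EpiLC KO they ran from 0.471 CPM per kb for Adgrg1 to 10.5 CPM per kb for Nphs1.

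Profiles over all 12 libraries were compared by a distance, which is the root mean square difference of log2 CPM, each gene centred on its mean over the 12 libraries, and it is a description of genes that share all libraries. It was 0.79 between Nphs1 and Gprc5c, 0.89 between Actn3 and Gprc5c, and 1.05 between Calb2 and Adgrg1. Adgrg1 was nearer to Actn3 at 1.46 and Gprc5c at 1.65 than to Tbx15 at 1.96, although it shares with Tbx15 the lower level in EpiLC WT. The greatest distance, 3.51, was between Tbx15 and Nphs1. Among 10127 tested genes with a mean of at least 5 CPM, the nearest to Nphs1 were Kirrel2 at 0.30 and Atp10a, a phospholipid flippase gene, at 0.35. The nearest to Actn3 were Arhgef15, a guanine nucleotide exchange factor gene, at 0.48 and Galk1, galactokinase, at 0.60. Galk1 averaged 11.2 ± 1.36 CPM in naive KO and 74.9 ± 12.1 CPM in naive WT, and 29.2 ± 1.04 CPM in EpiLC KO and 183 ± 41.7 CPM in EpiLC WT (SD, n = 3 each). Its log2 fold change of KO over WT was -2.73 in naive cells and -2.65 in EpiLCs, values closer to each other than those of Actn3. The nearest to Gprc5c were Mocos, the molybdenum cofactor sulfurase, at 0.57 and Gpx2, a glutathione peroxidase, at 0.59. Tbx15 was closest to Tgm1, a transglutaminase, at 0.73 and to Npr3, the natriuretic peptide clearance receptor, at 0.77. Calb2 was closest to the tetraspanin gene Tspan15 at 0.86 and to the POU factor gene Pou2f3 at 0.94, and Adgrg1 to Tuft1 at 0.81 and Map6, which encodes a microtubule-stabilising protein, at 0.86.

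Other genes with a naive difference of this size give the setting. In all, 160 genes (0.882% of those tested) were called lower in naive KO with a log2 fold change of -2 or below. The 6 genes were picked on this contrast and are counted in the 160 for that reason, which is no test of them. Of the 160, 36 (22.5%) were also called lower in EpiLC KO, and they make up 2.53% of the 1425 EpiLC falls. Another 3 (1.88%) were called higher in EpiLC KO. Their median EpiLC log2 fold change was -0.66, next to -0.77 for the 6, and 61 of the 160 were lower in every EpiLC KO library. The 36 became 61 when the count was made without naive KO replicate 3, and 17 to 21 without EpiLC KO replicate 1 (17), 2 (20) or 3 (19) or EpiLC WT replicate 1 (21) or 3 (18). Each time the large naive falls were selected anew, so these counts are not out of the same 160 genes. By the description above both comparisons draw on the same 3 clones per genotype, so no test was made.

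**Figure D3:**
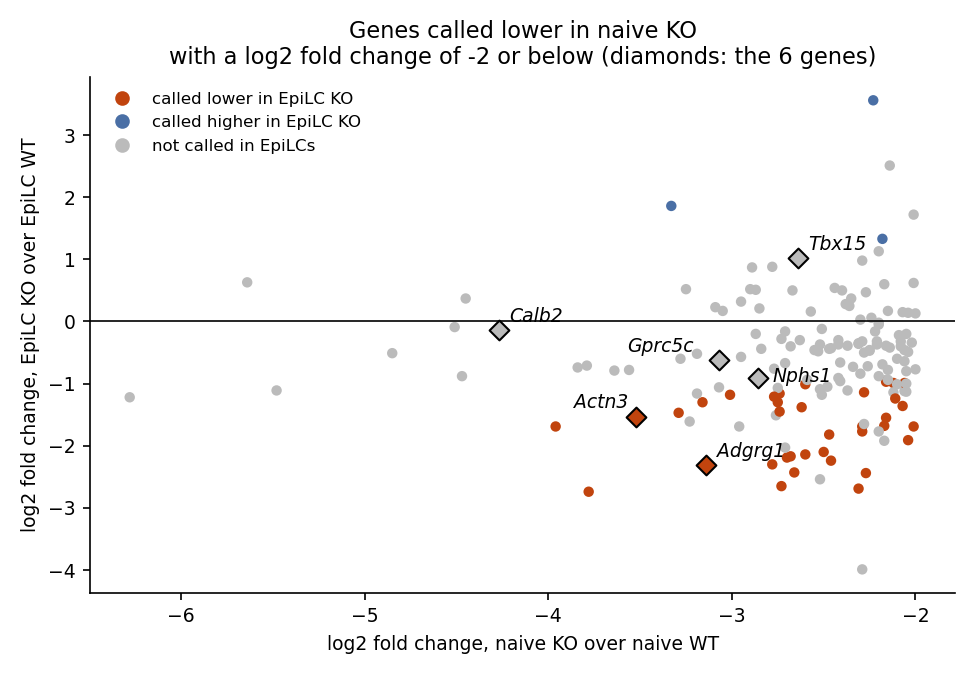
EpiLC log2 fold change (vertical) against naive log2 fold change (horizontal), KO over WT, for the 160 genes called lower in naive KO at -2 or below; diamonds are the 6 genes and colour gives the EpiLC call. Orange points are the 36 genes called lower in EpiLC KO, blue the 3 called higher, and Calb2 and Tbx15 lie near and above 0.

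Relatives of the 6 genes, 89 tested of 118 listed, were mostly not called. In naive KO 10 (11.2%) were called lower and 3 (3.37%) higher, where 4.95% and 4.27% of all genes were. In EpiLC KO 5 (5.62%) were lower and 7 (7.87%) higher, next to 7.86% and 7.22% of all genes. These counts move with single libraries: naive lower calls numbered 6 without naive KO replicate 1, naive higher calls 1 without naive KO replicate 1 or naive WT replicate 3 and 6 without EpiLC WT replicate 2. EpiLC lower calls numbered 1 to 3 when naive KO replicate 1 (2) or naive WT replicate 1 (3) was left out, or EpiLC KO replicate 1 (1), 2 (2) or 3 (2), or EpiLC WT replicate 3 (2), and 9 without EpiLC WT replicate 2. EpiLC higher calls numbered 2 to 4 without EpiLC KO replicate 1 (2), 2 (4) or 3 (3), or EpiLC WT replicate 1 (2) or 3 (4).

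The alpha-actinin paralogs of Actn3 and the GPRC5 paralogs of Gprc5c were not called by edgeR in either medium. For the alpha-actinins, Actn1 averaged 365 ± 25.7 CPM in naive KO and 451 ± 12.9 CPM in naive WT, a log2 fold change of -0.31 (adjusted p = 0.0583), and its EpiLC log2 fold change was -0.29 (adjusted p = 0.0582). Actn4 had -0.26 in naive cells and -0.13 in EpiLCs, and Actn2 0.67 and 0.38, all without passing. None of the 13 tested alpha-actinins and Z-disc partners was called by edgeR in either medium, while 3 naive and 2 EpiLC members had an unadjusted p under 0.05 and DESeq2 called 2 and 2. Among the GPRC5 receptors Gprc5b averaged 21.7 ± 4.11 CPM in naive KO and 28.6 ± 4.94 CPM in naive WT, with log2 fold changes of -0.40 in naive cells and -0.42 in EpiLCs, and Gprc5a had -0.09 and -1.10, again without passing.

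The wider families of the receptors held several calls. Adgrl2, the latrophilin 2 gene, averaged 2.41 ± 0.866 CPM in naive KO and 10.2 ± 1.68 CPM in naive WT, a fall of -2.09 ± 0.229 on the log2 scale (adjusted p = 0.000309), and 56.9 ± 6.01 CPM in EpiLC KO and 66.3 ± 7.26 CPM in EpiLC WT, a log2 fold change of -0.22 that did not pass (adjusted p = 0.50). Adgrl1, latrophilin 1, was lower in naive KO at -0.83 (adjusted p = 0.00985). Adgrb3, a brain adhesion receptor, was higher in EpiLC KO at 4.10 ± 0.521 (adjusted p = 0.000536), with 1.53 ± 0.537 CPM in KO and 0.0878 ± 0.0584 CPM in WT. These 3 calls held with each library left out. In naive KO Adgrb3 was also higher at 2.45 (adjusted p = 0.0172), but no longer so with naive KO replicate 1 (0.0644) or naive WT replicate 3 (0.0807) left out. In the retinoid list, which covers the signal that GPRC5 genes respond to, Rxra, a retinoid X receptor, was lower in naive KO at -1.14 (adjusted p = 0.00582), with 12.6 ± 4.67 CPM in KO and 27.9 ± 3.1 CPM in WT. Crabp1, which binds retinoic acid in the cytosol, was lower in naive KO at -1.55 (adjusted p = 0.0116) and in EpiLC KO at -1.28 (adjusted p = 0.015), a call in EpiLCs that was lost without EpiLC KO replicate 1 (0.0586) or 2 (0.0584).

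Relatives of the other members moved in both directions. Plce1, a phospholipase C gene of the podocyte list, was higher in KO in both media, with 12.3 ± 2.88 CPM in naive KO against 4.38 ± 0.685 CPM in naive WT, and 3.59 ± 1.01 CPM in EpiLC KO against 1.37 ± 0.463 CPM in EpiLC WT. Its log2 fold changes were 1.49 (adjusted p = 0.00784) and 1.37 (adjusted p = 0.0109). Cabp1, a neuronal calcium-binding protein, was lower in EpiLC KO at -1.69 ± 0.204 (adjusted p = 0.000386), with 3.97 ± 0.48 CPM in KO and 12.9 ± 2.68 CPM in WT. In naive KO it was lower at -0.86 (adjusted p = 0.0162), not without naive KO replicate 1 (0.0661) or naive WT replicate 3 (0.0613). Of the T-box factors, Eomes was higher in EpiLC KO at 1.01 (adjusted p = 0.035) and Tbx4 at 1.58 (adjusted p = 0.0216), the same side as Tbx15, while Tbx20, under 1 CPM in every group mean, was higher in naive KO at 2.27 (adjusted p = 0.0409), the opposite side from Tbx15 there. The Tbx20 call ended when any naive library other than WT replicate 2 was left out (0.0741 to 0.159), and when EpiLC KO replicate 1 (0.0603) or 2 (0.0556) was. The Eomes call ended without EpiLC KO replicate 1 (0.113) or 3 (0.0999) or EpiLC WT replicate 1 (0.0572) or 3 (0.106), and the Tbx4 call without EpiLC KO replicate 1 (0.0984) or EpiLC WT replicate 1 (0.0719) or 2 (0.0505). Eomes stands also on the trophoblast list and marks endoderm, and markers of endoderm were higher in the same EpiLC KO libraries. Of Gata4, Gata6, Sox17, Sox7, Foxa2, Cubn, Afp and Dab2, 7 of 8 were called higher, and their sum was 35.2 to 46.7 CPM in EpiLC KO against 7.09 to 14.2 CPM in EpiLC WT. Their part in the EpiLC values of Tbx15 and the other members was not tested. In naive cells the same sum was 1.87 to 4.55 CPM in KO and 2.69 to 13.5 CPM in WT.

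The 8 embryonic stem cell markers summed to 5540 to 5830 CPM in naive KO and 6050 to 6360 CPM in naive WT. In EpiLCs their sum was 1660 to 1890 CPM in KO and 1540 to 2420 CPM in WT. Pou5f1 changed little, with 656 CPM in naive KO and 655 CPM in naive WT, and 720 CPM in EpiLC KO and 622 CPM in EpiLC WT. Klf4 averaged 320 and 376 CPM in naive KO and WT, and 8.52 and 5.76 CPM in EpiLC KO and WT. Of the 8, only Dppa5a was called, lower in naive KO at -0.54 (edgeR adjusted p = 0.0489). Fgf5 averaged 132 CPM in EpiLC KO and 111 CPM in EpiLC WT, against under 1 CPM in both naive groups. The 5 EpiLC markers summed to 2470 to 2570 CPM in EpiLC KO and 2080 to 3700 CPM in EpiLC WT. Summed markers of other cell types were at most 42.9 CPM in every naive library. The 6 markers of limb and trunk mesoderm, a site of Tbx15 expression, summed to 40.9 to 63.2 CPM in EpiLC KO and 23.8 to 40.8 CPM in EpiLC WT, mostly from Tcf15, and Prrx1 was at or near 0 in every group. Fibroblast markers summed to 19.2 to 33.4 CPM in EpiLC KO and 10 to 20 CPM in EpiLC WT, and 2-cell-like markers to 2.34 to 30.4 CPM in EpiLC KO and 1.01 to 3.66 CPM in EpiLC WT. Trophoblast markers summed to 16.8 to 24.5 CPM in EpiLC KO and 10.6 to 17.9 CPM in EpiLC WT, and neural markers to 25.4 to 31.1 CPM in EpiLC KO and 26.5 to 48.4 CPM in EpiLC WT. Their part in the values of the 6 genes was not tested.

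Genes next to the 6 on the chromosome were also read off, 5 tested genes on each side and 60 in all. In naive KO 12 of them were called lower by edgeR (all genes 4.95%) and 0 higher. Of the 12, 3 lay beside Nphs1 and 3 beside Adgrg1. Those beside Nphs1 include Nphs1os, which shares exon bases with it. DESeq2 called 15 neighbours lower and 0 higher, where it called 1398 of all genes lower. An unadjusted p under 0.05 was found for 20 lower and 0 higher neighbours, and the matching share of all genes is not given here. In EpiLC KO 10 were lower (all genes 7.86%) and 1 higher. The naive count was 4 without naive KO replicate 1, 7 without naive KO replicate 2 and 5 without naive WT replicate 3, and the EpiLC count of lower genes was 2 to 6 with the omission of naive KO replicate 1 (5), of naive WT replicate 1 (5) or 3 (6), of EpiLC KO replicate 1 (2), 2 (5) or 3 (6), or EpiLC WT replicate 1 (5), 2 (6) or 3 (4). Ctsf, the cathepsin F gene, lies 298 bp from Actn3 on the other strand and was lower in naive KO at -0.92 (adjusted p = 0.00421), with 9.33 ± 1.28 CPM in KO and 17.6 ± 1.99 CPM in WT. In EpiLCs its log2 fold change was 0.07 (adjusted p = 0.806), where Actn3 was lower. On the other side of Actn3, Zdhhc24, which encodes a palmitoyltransferase-family protein, lies 759 bp away and was lower in EpiLC KO at -0.49 (adjusted p = 0.0413), with -0.15 in naive cells (adjusted p = 0.584). That call ended with any library left out other than naive KO replicate 2 or 3 or EpiLC WT replicate 1 (adjusted p 0.0559 to 0.124). Phgdh, the enzyme that opens serine synthesis, lies 900391 bp from Tbx15 and was lower in KO in both media. Its log2 fold change was -1.67 in EpiLCs (adjusted p = 0.00446), the opposite side from Tbx15, and -1.17 in naive cells (adjusted p = 0.0326), the same side, a call lost when naive KO replicate 1 was left out (0.101), and likewise WT replicate 2 (0.0949) or 3 (0.0657) of the naive cells. Wars2, a mitochondrial aminoacyl-tRNA synthetase gene 1195 bp from Tbx15, had log2 fold changes of 0.55 in EpiLCs (adjusted p = 0.069) and 0.21 for naive KO over WT (adjusted p = 0.55), and Wdr3, the nearest on the other side at 783921 bp, had 0.02 and -0.07. Beside Gprc5c, Cd300a had -1.19 in EpiLCs (adjusted p = 0.197) and -2.40 for naive KO over WT (adjusted p = 0.0873), at under 1 CPM. Next to Adgrg1, the predicted gene Gm10286 was lower in EpiLC KO at -2.69 (adjusted p = 0.00319) but under 1 CPM in every group mean, and Adgrg3, the nearest paralog, averaged 0.264 CPM in naive KO and 0.635 CPM in naive WT without passing.

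**Figure D4:**
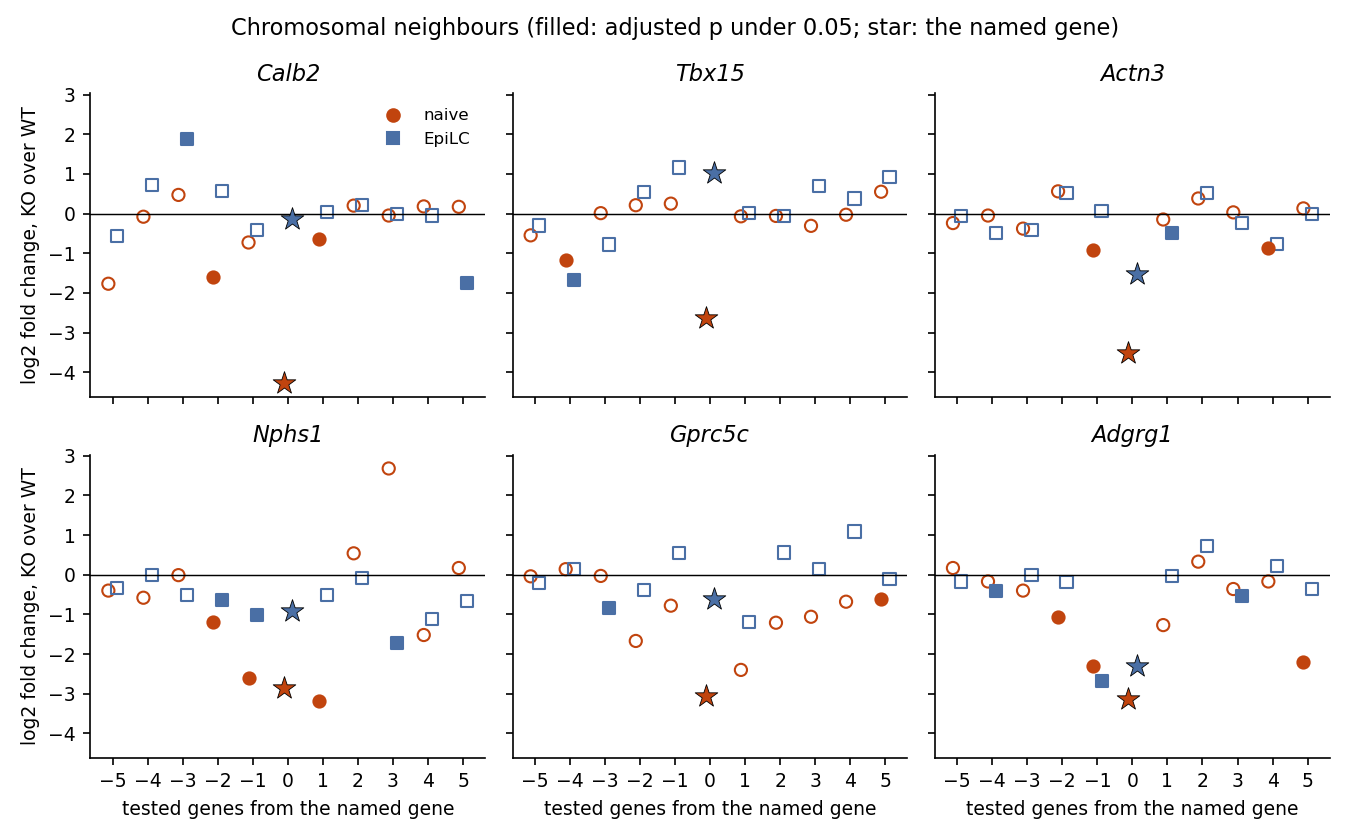
Log2 fold change of KO over WT for the 5 tested genes on each side of each of the 6 genes, by rank along the chromosome; circles are naive, squares EpiLC, stars the 6 genes, and filled symbols have an edgeR adjusted p under 0.05. The star lies below its nearest neighbours in naive cells except at Nphs1, where Nphs1os at -3.19 is lower than Nphs1 at -2.86 and Kirrel2 stands at -2.60.

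The GC content of the longest annotated transcript was above the median of all tested genes, 49.6%, for 5 of the 6 (48.2% for Tbx15, and 53.5% for Calb2 to 56.9% for Actn3). With each library's trend over GC content entered as an offset, an alternative chosen after seeing the data, the EpiLC calls of Actn3 and Adgrg1 held and the EpiLC log2 fold change of Calb2 turned to 0.03. The same offset gave 3 EpiLC lower calls among the neighbours, against 10 without it, and 2 among the relatives, against 5 without it, and ended the EpiLC call of Kirrel2 (adjusted p = 0.0749).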

How the data were processed

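The authors deposited whole-number read counts for every gene, without normalization, beside the summed length of its exons in bp. Per the file headers, they counted reads with featureCounts 2.0.1 on GENCODE vM25, and no strand option is recorded, so counting was without regard to strand although the TruSeq kit keeps it. The submitters' processing notes also name fastp, FastQC, STAR and DESeq2 and the build GRCm38 (mm10). Their versions are not given in the sources used here. Reads shared between overlapping genes or between paralogs are not counted under the tool's defaults.

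Counts were normalized by TMM in edgeR 4.0.16 (R 4.3.3). Genes were kept by filterByExpr (minimum count 10, minimum total 15), which left 18134. All 12 libraries (27146744 to 42204511 reads, 4 groups of 3) were fitted together by quasi-likelihood (8 residual degrees of freedom). A gene was called at a Benjamini-Hochberg adjusted p under 0.05 over all genes tested. Standard errors are the log2 fold change divided by the square root of F. CPM per kb divides CPM by the deposited exon length. Motifs were searched in RefSeq windows of 300 bases. GC content came from GENCODE vM21 transcripts of the same build. p-values measure the spread between single-clone libraries, pooled over the 4 groups in the same fit. The spread behind an EpiLC p-value thus includes the naive libraries that chose the genes. With 3 clones per genotype, the 12 libraries are not 12 independent clones. DESeq2 1.42.0, other size factors, no filter, a fit per medium, a replicate block and each library left out were alternatives.

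The 6 genes and the lists of relatives and markers were chosen with earlier results of these data known. Named were Pcbp1, the 6 genes, called relatives and neighbours and nearest paralogs (at most 4 per list or gene), and the 2 most similar profiles of each. The text leaves out some of these. KO and WT libraries of the same number did not deviate together, so numbers do not pair genotypes.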

Additional observations from a re-analysis of the deposited data

Results flagged for a closer look

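Tbx15 differed between the media in the sign of its log2 fold change. In EpiLC KO over WT it was 1.02, which did not pass by edgeR (adjusted p = 0.146). Every EpiLC KO library lay above every EpiLC WT library, as for 16.1% of all tested genes. Every naive KO library lay below every naive WT library, as for 15.3% of all tested genes. The difference between the media was not tested, because the naive libraries chose the gene.

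The effect of KO on Adgrl2 differed between EpiLCs and naive cells by 1.87 on the log2 scale (edgeR interaction, adjusted p = 0.0342), with 2.41 CPM in naive KO against 10.2 CPM in naive WT and 56.9 CPM in EpiLC KO against 66.3 CPM in EpiLC WT. For Nphs1os the same interaction was 2.67 (edgeR adjusted p = 0.0394), and part of that transcript shares exon bases with Nphs1, which was picked for its naive difference. Nphs1os averaged only 0.0982 CPM in naive KO and 0.92 CPM in naive WT. Other genes named here passed the same interaction test. These include Gata4 at 3.62 (edgeR adjusted p = 0.0412), Sox17 at 3.86 (0.0478) and Foxa2 at 4.93 (0.0482). Their naive levels were near the floor. Gata4 averaged 0.313 CPM in naive KO and 0.722 CPM in naive WT, Sox17 0.0698 and 0.188 CPM, and Foxa2 0.0202 and 0.0977 CPM. Tspan15 had 2.05, but it was named for its likeness to Calb2, a gene picked for its naive fall. The Tspan15 interaction is therefore no test. The share of all genes that passed is not given here. With the clone (genotype and replicate number) as a block, an alternative chosen after seeing the data, the interactions were 1.89 for Adgrl2 (adjusted p = 0.0346) and 2.63 for Nphs1os (0.0421), with 4 residual degrees of freedom.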

How the results depend on the processing

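Over 19 other settings for each of the 6 genes, the EpiLC log2 fold change kept its direction and its side of the threshold in 102 of 114 values, lost a call in 4 (all Adgrg1), gained one in 6 (Nphs1 in 5 and Tbx15 in 1) and turned in 2. Both turns were of Calb2 (-0.14), which ran from -0.36 to 0.01 with 1 library left out, its highest value without EpiLC WT replicate 3 (adjusted p = 0.989), and turned to 0.03 with the GC offset (0.966). The naive values moved by more than the SD between replicates (on log2 CPM, pooled over both groups) in 2 of 114, Adgrg1 to -4.49 and Gprc5c to -4.17 without naive KO replicate 3.

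With 1 library left out, called members in EpiLCs numbered 1 to 3, genes called in EpiLCs 1375 to 3117 (2734 with all), genes called in naive cells 678 to 2164 (1673 with all) and large naive falls also called lower in EpiLC KO 17 to 61 (36 with all). The lowest counts came without EpiLC KO replicate 1 (1375 and 17) and naive KO replicate 1 (678). DESeq2 called 2516 genes in naive cells. With the replicate number as a block, 2 members, 2552 genes in EpiLCs and 1608 in naive cells were called, and the calls of Actn3 (adjusted p = 0.00195) and Adgrg1 (0.00508) held. The number does not pair genotypes: same-numbered KO and WT libraries correlated at -0.266 to -0.083 in EpiLCs and -0.091 to 0.004 in naive cells. Depth limits the low groups most, since Gprc5c, Calb2 and Actn3 had 19 to 85 reads in naive KO libraries.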
